A study of Mus musculus with 6 samples.

Results

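The lysosomal cathepsins examined here are 10 genes, Ctsa, Ctsb, Ctsc, Ctsd, Ctse, Ctsh, Ctsk, Ctsl, Ctss and Ctsz, out of 16504 named genes on a mouse Agilent long-oligonucleotide array. They were taken by gene symbol from the platform annotation, and each had 1 spot. The set was put together because the Ctsc signal had been seen to be lost in cells without PARP-1, and the question was whether other cathepsins shared that loss. The Ctsc ratios are therefore the values that prompted the choice and are described without a test. The other 9 members were chosen by family name, with earlier results of these arrays known.

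Cathepsins are the proteases of the lysosome, the acidic organelle in which cells break down proteins taken up from outside or delivered by autophagy. Most are cysteine proteases related to papain, Ctsd and Ctse encode aspartic proteases, and Ctsa encodes a serine carboxypeptidase. Fibroblasts carry several of them as housekeeping enzymes, while cathepsins C and S are best known from leukocytes and cathepsin K from the bone-resorbing osteoclast. Many lysosomal genes carry a site for the transcription factor TFEB in their promoters, built around the letters CACGTG.

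RNA came from cultured fibroblasts of 15.5-day mouse embryos on a mixed 129/Sv and Black Swiss background, extracted from the cytoplasm at passage 2 after 10 population doublings. The mutants were a Wrn helicase in-frame deletion, a PARP-1 null and the Wrn-PARP1 double mutant, each hybridised on 2 arrays (6 in all) together with wild-type RNA of the same background. Per the design text, each pool held cells of 3 embryos from 1 litter, and a second litter gave another pool. Wrn is the helicase lost in human Werner syndrome, and PARP-1 is an enzyme that binds DNA strand breaks and builds poly(ADP-ribose) chains. The strain label of the mutant channel of the duplicate double-mutant array reads wild type, while its title and source name the double mutant.

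Values are log2 ratios, read as mutant over wild type, and a ratio says nothing of how strongly a gene was expressed. Cell identity could not be checked for the same reason, because marker levels are not in the ratios. In RNA of whole cultures, fewer cells of a type and less RNA per cell cannot be told apart. Wild type was labelled with Cy5 and the mutant with Cy3 on all 6 arrays, so a ratio to wild type also holds any dye bias of the spot, whereas a difference between mutants does not. The direction of the ratio is likely, not stated: Parp1 lay between -2.97 and -2.30 wherever the mutant cells lacked PARP-1 (4 arrays), and at -0.12 and -0.31 on the Wrn mutant arrays. Wrn was 0.84 and 0.58 on those of the in-frame deletion and between -0.29 and 0.71 on the other 4, and since the place of its probe relative to the deletion is not known here, this checks no label. Turned round, every direction below would be mirrored. No array of the wild type against itself was used here, and whether duplicate arrays held the pools of separate litters is not given for each array, so the p-values rest on array-to-array spread that can be technical in part.

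Stretches upstream of 4 cathepsin genes are shown because these genes span the patterns described below: Ctsc with its loss in cells without PARP-1, the neighbouring genes Ctsk and Ctss, and Ctsd, which did not pass in any comparison. Capitals mark CACGTG, the same on both strands, and each stretch ends before the outermost start that RefSeq gives for the gene (RefSeq, GRCm38.p6).
Ctsc, chr7:88277835-88278023, plus strand: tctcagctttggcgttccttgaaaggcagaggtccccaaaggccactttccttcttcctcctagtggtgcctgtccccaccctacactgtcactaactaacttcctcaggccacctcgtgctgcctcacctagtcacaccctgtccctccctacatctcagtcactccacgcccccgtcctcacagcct
Ctsk, chr3:95498960-95499209, plus strand: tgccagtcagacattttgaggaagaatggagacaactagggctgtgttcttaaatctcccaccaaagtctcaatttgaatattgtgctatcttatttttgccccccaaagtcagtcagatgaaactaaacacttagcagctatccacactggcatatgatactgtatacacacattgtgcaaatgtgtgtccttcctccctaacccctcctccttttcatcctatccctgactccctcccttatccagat
Ctss, chr3:95526536-95526785, plus strand: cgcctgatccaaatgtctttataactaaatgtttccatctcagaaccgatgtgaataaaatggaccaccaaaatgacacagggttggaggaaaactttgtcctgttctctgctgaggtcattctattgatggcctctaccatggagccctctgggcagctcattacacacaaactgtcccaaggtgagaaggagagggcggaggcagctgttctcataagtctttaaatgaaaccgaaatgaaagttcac
Ctsd, chr7:142387828-142388077, minus strand: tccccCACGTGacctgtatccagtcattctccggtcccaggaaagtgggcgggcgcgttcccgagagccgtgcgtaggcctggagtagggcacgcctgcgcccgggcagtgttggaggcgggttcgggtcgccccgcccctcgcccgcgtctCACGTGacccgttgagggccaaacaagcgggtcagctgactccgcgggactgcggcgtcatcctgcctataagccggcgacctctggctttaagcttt
RefSeq windows of 300 bases, from 250 before to 50 after a listed start, were at hand for 7 of the 10 members. CACGTG stood in a window of 3 of them, Ctsd, Ctsl and the downstream one of 2 Ctsa windows, and in 7.15% of all 32851 windows in the table. The first count is by gene and the share is by window, so they are not like for like. The Ctsl window, as the Ctsa window with the match, lay downstream of the outermost start of its gene. The windows of Ctsc, Ctsk, Ctss and Ctsz held no match, which says only that these letters are not there. By base composition the Ctsk and Ctss windows were 43.7% and 44.0% G and C, against 60.3% for Ctsc and 67.3% for Ctsd.

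Ctsc encodes cathepsin C, or dipeptidyl peptidase I, which clips dipeptides from the amino end of proteins and so activates the serine proteases of leukocyte granules. Its log2 ratio was -4.19 and -4.55 on the PARP-1 null arrays and -4.08 and -3.60 on the double-mutant arrays, against 0.98 and 1.08 in Wrn mutant cells. The 4 arrays of cells without PARP-1 were thus far below wild type and the 2 Wrn mutant arrays above it, with no overlap. Means were -4.37 ± 0.26 (SD, n = 2) in PARP-1 null cells, -3.84 ± 0.34 (n = 2) in double-mutant cells and 1.03 ± 0.071 (n = 2) in Wrn mutant cells. Of the 16504 named genes, 2 had a lower mean than Ctsc in PARP-1 null cells and 12 in double-mutant cells. The difference between the cells without PARP-1 and the Wrn mutant was -5.13 on the log2 scale, and the double mutant lay 0.53 above the PARP-1 null (1.31 under scale normalization between arrays).

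**Figure D1:**
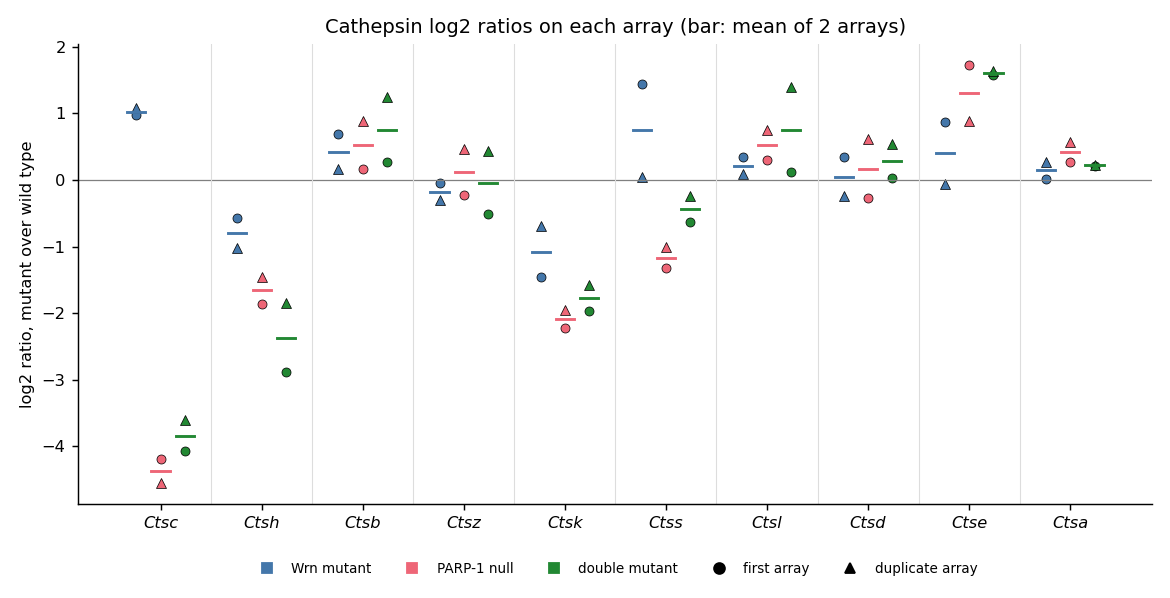
Log2 ratio of each cathepsin, mutant over wild type, on the 6 arrays; circles are first arrays, triangles duplicates, and bars the mean of 2 arrays of a genotype. Ctsc lies between -4.55 and -3.60 in cells without PARP-1 and near 1 in Wrn mutant cells, while no other member falls below -2.88.

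Ctsk encodes cathepsin K, the collagen-cutting endopeptidase that osteoclasts use on bone and that fibroblasts also make. It was below wild type on all 6 arrays, at -2.22 and -1.95 in PARP-1 null cells, -1.97 and -1.58 in double-mutant cells, and -1.46 and -0.68 in Wrn mutant cells. The arrays without PARP-1 were all lower than those of the Wrn mutant, although the gap of 0.12 between the nearest arrays of the 2 kinds was smaller than the 0.78 between the Wrn mutant arrays themselves. Ctsk fell in PARP-1 null cells, with a mean of -2.09 ± 0.19 (SD, n = 2; adjusted p = 0.0325), and in double-mutant cells, with -1.78 ± 0.28 (n = 2; adjusted p = 0.0274; limma, Benjamini-Hochberg over all features). In Wrn mutant cells its mean was -1.07 ± 0.55 (n = 2; adjusted p = 0.114 in limma). Both calls held when either Wrn mutant array was left out and were lost when any 1 of the 4 arrays lacking PARP-1 was left out. The adjusted p then ran from 0.0835 to 0.169 for the PARP-1 null and from 0.0773 to 0.156 for the double mutant (limma). They were also lost under scale normalization between arrays (adjusted p = 0.0535 in PARP-1 null cells and 0.0887 in double-mutant cells, limma).

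Ctsh encodes cathepsin H, an aminopeptidase. Its ratio was -2.88 and -1.85 in double-mutant cells, -1.86 and -1.46 in PARP-1 null cells, and -0.56 and -1.02 in Wrn mutant cells. Like Ctsk it was below wild type on every array, and the 4 arrays without PARP-1 were all lower than the 2 of the Wrn mutant. Ctsh fell in double-mutant cells, at -2.37 ± 0.73 (SD, n = 2; adjusted p = 0.0266, limma), and did not pass in PARP-1 null cells, at -1.66 ± 0.28 (n = 2; adjusted p = 0.0684), or in Wrn mutant cells, at -0.79 ± 0.32 (n = 2; adjusted p = 0.255). The call in double-mutant cells was lost whichever of the 6 arrays was left out, with adjusted p-values from 0.0615 to 0.110, while the PARP-1 null value passed under scale normalization (-1.74, adjusted p = 0.0461 in limma).

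Ctss encodes cathepsin S, an endopeptidase of antigen-presenting cells that trims the invariant chain of MHC class II. It was 1.45 and 0.046 in Wrn mutant cells, -1.33 and -1.01 in PARP-1 null cells, and -0.62 and -0.24 in double-mutant cells. All 4 arrays without PARP-1 were below 0 and both Wrn mutant arrays above it, yet the Wrn mutant arrays were further apart than the genotype means of the PARP-1 null and the double mutant. No comparison passed: the mean was -1.17 ± 0.22 (n = 2; adjusted p = 0.170) in PARP-1 null cells, -0.43 ± 0.27 (n = 2; adjusted p = 0.538) in double-mutant cells and 0.75 ± 0.99 (n = 2; adjusted p = 0.357) in Wrn mutant cells (limma). Ctsk and Ctss are direct neighbours on chromosome 3 in RefSeq, with the measured genes Arnt and Hormad1 outside them. Arnt was between -0.015 and 1.95 on the 6 arrays. Hormad1 was between -0.76 and 0.23, with exactly 0 on 2 of them, the first PARP-1 null and the first double-mutant array. Setdb1, the next measured gene beyond Arnt, was -0.64 and -0.62 in PARP-1 null cells and 0.031 and 0.18 in double-mutant cells. It passed in PARP-1 null cells (adjusted p = 0.0206, limma), as did 7.19% of named genes.

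None of the remaining papain-type members passed against wild type. Ctsb, the most general of the lysosomal cysteine proteases, was 0.69 and 0.17 in Wrn mutant cells, 0.16 and 0.89 in PARP-1 null cells, and 0.27 and 1.25 in double-mutant cells. Ctsl, an endopeptidase that fibroblasts secrete in quantity when transformed, was 0.34 and 0.093, then 0.30 and 0.75, then 0.12 and 1.39 in the same order. These 2 genes were above 0 on all 6 arrays, but for each the 2 double-mutant arrays differed by more than any 2 genotype means did. Ctsz, which encodes the carboxypeptidase cathepsin Z, lay between -0.51 and 0.47 and had arrays on either side of 0 in PARP-1 null cells and in double-mutant cells. Adjusted p-values of the 3 against wild type ran from 0.230 to 1 (limma).

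Among the members outside the papain family, Ctse, an aspartic protease known from gut and immune cells, had the highest ratios. It was 1.73 and 0.88 in PARP-1 null cells, 1.58 and 1.64 in double-mutant cells, and 0.87 and -0.066 in Wrn mutant cells. The arrays without PARP-1 were all higher than those of the Wrn mutant, by 0.011 at the nearest pair, so the separation was small beside the 0.94 between the Wrn mutant arrays. Its means of 1.31 ± 0.60 (n = 2; adjusted p = 0.110) in PARP-1 null cells and 1.61 ± 0.048 (n = 2; adjusted p = 0.0536) in double-mutant cells did not pass (limma), though both passed when values of exactly 0 were set to missing (adjusted p = 0.0358 and 0.0133). Ctsd, the main aspartic protease of lysosomes, ranged from -0.27 to 0.61 over the 6 arrays and its genotype means from 0.051 to 0.28. Ctsa, whose product also shields beta-galactosidase and neuraminidase, was above 0 on all 6 arrays, between 0.021 and 0.57, with a mean of 0.42 ± 0.21 (n = 2; adjusted p = 0.108, limma) in PARP-1 null cells.

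Among the 9 members other than Ctsc, few passed against wild type, and the shares were read against those of all named genes. In PARP-1 null cells 1 of 9 (11.1%) passed, where 7.19% of all named genes passed, 3.33% higher and 3.87% lower. In double-mutant cells 2 of 9 (22.2%) passed, where 18.5% of all named genes passed, 10.1% higher and 8.38% lower. In Wrn mutant cells 0 of 9 passed in limma, where 2.35% of named genes did, 1.01% higher and 1.34% lower, and 1 of 9, Ctsk, had an unadjusted p under 0.05, as did 23.4% of named genes. At that unadjusted threshold were also 5 of 9 in PARP-1 null cells (Ctsa and Ctse higher, Ctsh, Ctsk and Ctss lower), against 27.5% of named genes, and 3 of 9 in double-mutant cells (Ctse higher, Ctsh and Ctsk lower), against 37.4%. Below 0 on all 6 arrays were 2 members, Ctsh and Ctsk, as were 16.2% of named genes, and above 0 on all 6 were 3, Ctsa, Ctsb and Ctsl, as were 17% of named genes. The median log2 ratio of the 9 was 0.15 in Wrn mutant cells, 0.17 in PARP-1 null cells and 0.22 in double-mutant cells, against 0 for all named genes in each. By array the median of the 9 went from -0.22 to 0.57 within PARP-1 null cells alone.

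The question whether the loss of Ctsc is shared was put to the difference between the 4 arrays without PARP-1 and the 2 Wrn mutant arrays, in which dye bias cancels and wild-type RNA is the partner on both sides. Over all named genes 2 passed there, 0.0121% of those tested, and 0 of the 9 members did (limma). Parp1 itself did not pass (-2.40, adjusted p = 0.0911, limma), so the 0 of 9 cannot show that the loss is not shared. Ctsh, Ctsk and Ctss had an unadjusted p under 0.05 (limma), as did 13.3% of all named genes. The differences of these 3 were -1.55 (95% interval -2.92 to -0.17; adjusted p = 0.357) for Ctss, -1.22 (-2.32 to -0.11; adjusted p = 0.367) for Ctsh and -0.86 (-1.70 to -0.012; adjusted p = 0.396) for Ctsk (limma). These 3 of the 9 were also those whose arrays without PARP-1 all lay below both Wrn mutant arrays, as did 8.57% of all named genes (and Ctsc, whose order prompted the choice), and Ctse was the 1 member above, as were 12.7% of named genes. The remaining 5 overlapped, with differences of 0.17 (-0.20 to 0.55) for Ctsa, 0.18 (-0.92 to 1.27) for Ctsd, 0.21 (-1.01 to 1.44) for Ctsb, 0.21 (-0.90 to 1.33) for Ctsz and 0.42 (-0.85 to 1.70) for Ctsl. The lowest bound among the 9 was -2.92 and the Ctsc difference was -5.13, which is no test of Ctsc, since its low values prompted the choice.

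**Figure D2:**
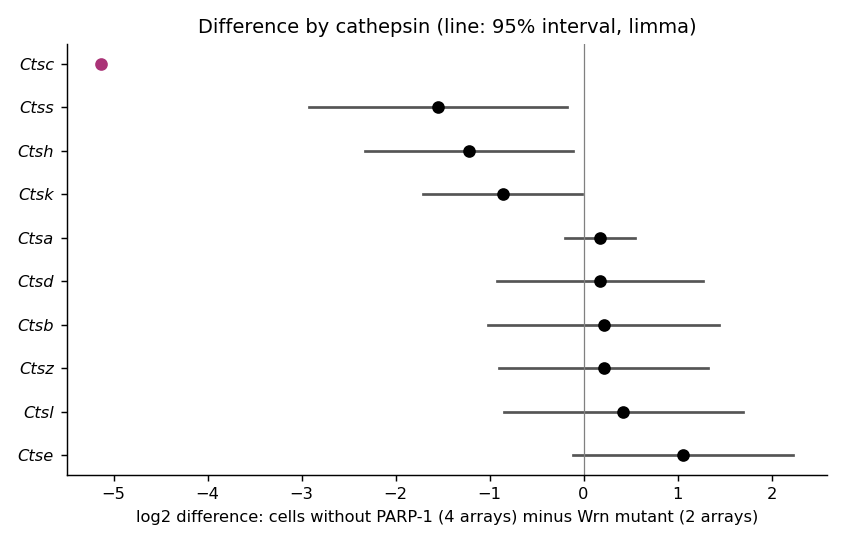
Difference in log2 ratio between cells without PARP-1 (mean of the PARP-1 null and the double mutant, 4 arrays) and the Wrn mutant (2 arrays) for each cathepsin; points are estimates and lines 95% intervals from limma, and Ctsc is drawn without one because its values prompted the choice of the family. The lowest bound of the other 9 is -2.92, for Ctss. The Ctsc point at -5.13 lies below it, which is no test because Ctsc was picked for its low values.

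The Wrn deletion on top of PARP-1 loss was addressed by the double mutant minus the PARP-1 null. No named gene passed there (0%, limma), although 7.16% had an unadjusted p under 0.05, and 0 of the 9 members passed either way. Of the 9, the largest differences were 0.74 (95% interval -0.85 to 2.32) for Ctss and -0.71 (-1.99 to 0.57) for Ctsh, in opposite directions.

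The genes with the most similar profile to Ctsc were found by the root mean square difference of log2 ratios over the 6 arrays. The 5 nearest were Fcrls, an Fc receptor-like gene of macrophages and microglia (0.57), the zinc finger gene Zfp874a (0.89), Arsk, which encodes a lysosomal sulfatase (1.11), Apoa2, an apolipoprotein gene (1.18), and Klra7, a natural killer cell receptor gene (1.23). Fcrls was -3.44 and -3.76 in PARP-1 null cells, -3.71 and -3.80 in double-mutant cells, and 1.69 and 0.81 in Wrn mutant cells. Arsk was -2.63 and -2.92, then -2.99 and -2.84, then 0.29 and 0.91 in the same order. These genes were picked for their likeness to Ctsc on the same 6 arrays. That Fcrls and Arsk part the arrays as Ctsc does follows from this choice and is no separate finding. In Wrn mutant cells Zfp874a was below wild type, at -0.58 and -0.31, where Ctsc was above it. Fcrls, Arsk, Apoa2 and Klra7 were above wild type on both of those arrays. The nearest cathepsins were Ctsh, at a difference of 2.09, and Ctsk, at 2.17, which left 56 and 86 named genes nearer, and Ctse was the farthest at 4.57. For Ctsk the nearest cathepsin was Ctsh at 0.61, with 142 named genes nearer.

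The 5 measured genes on each side of Ctsc on chromosome 7 (RefSeq order, GRCm38.p6) did not share its values. The next measured gene on one side, Grm5, a glutamate receptor gene, was between -0.20 and 0.11. It was listed at exactly 0 on 3 arrays, both of the PARP-1 null among them. Tyr, the tyrosinase gene, was listed at exactly 0 on all 6 arrays. On the other side Rab38, a small GTPase gene of lysosome-related organelles, was above wild type on every array, from 0.93 to 1.55. Folh1, a peptidase gene 4 measured genes away, had the same order as Ctsc on a smaller scale, at 0.43 and 1.45 in Wrn mutant cells, -1.16 and -1.18 in PARP-1 null cells, and -0.82 and -0.67 in double-mutant cells. Nox4, an NADPH oxidase gene between Folh1 and Tyr, was below 0 on all 6 arrays, from -1.84 to -0.54. Nox4 gave the lowest ratio among the flanking genes. It fell in double-mutant cells (-1.56 ± 0.40, n = 2, adjusted p = 0.0260, limma). Fzd4, a Wnt receptor gene, rose in PARP-1 null cells and the double mutant (adjusted p = 0.0419 and 0.0191, limma). Of all named genes 7.19% passed in PARP-1 null cells and 18.5% in double-mutant cells.

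**Figure D3:**
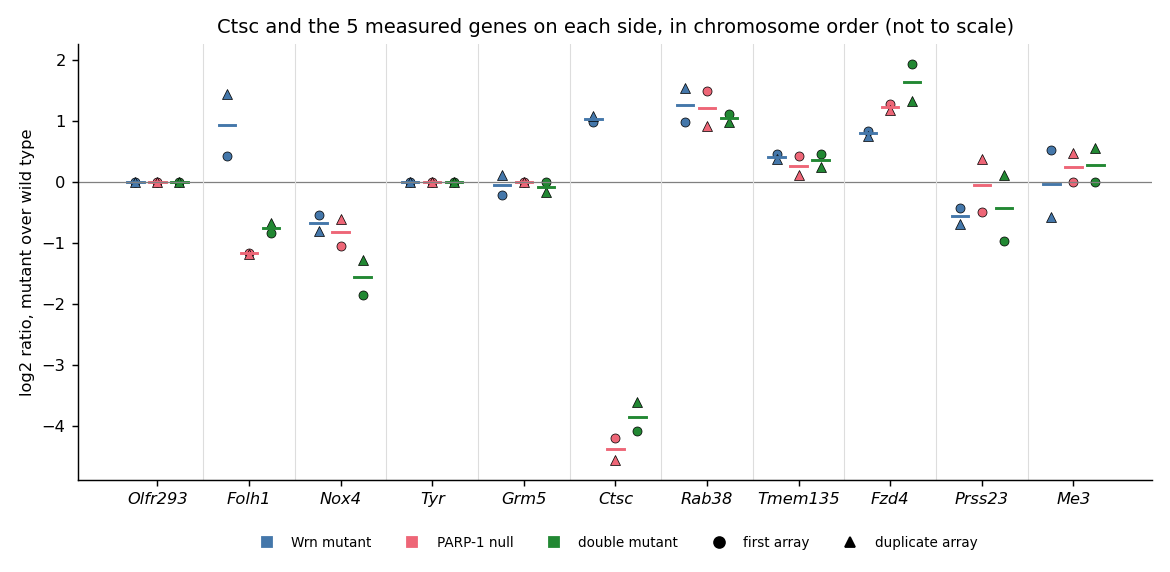
Log2 ratios of Ctsc and of the 5 measured genes on each side of it, in RefSeq order and not to scale; circles are first arrays, triangles duplicates, and bars means of 2 arrays. Ctsc lies between -4.55 and -3.60 in cells without PARP-1, the lowest flanking value is -1.84 for Nox4, and Rab38 beside it is between 0.93 and 1.55 on every array.

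Other cathepsin genes of the array added little. Of 16 further cathepsins and relatives 15 were measured, and 0 passed in Wrn mutant cells or the PARP-1 null (limma, with 4 and 1 of 15 at an unadjusted p under 0.05, against 23.4% and 27.5% of named genes). In double-mutant cells 2 of 15 (13.3%) passed, against 18.5% of named genes, both lower: Ctsw, a cathepsin of cytotoxic lymphocytes, at -0.59 ± 0.042 (n = 2; adjusted p = 0.0270), and the placental Cts6, at -1.27 (adjusted p = 0.0316). Ctsf and Ctso, which are widely expressed, were 0.25 ± 0.055 and -0.062 ± 0.088 in PARP-1 null cells and 0.060 ± 0.12 and -0.16 ± 0.22 in double-mutant cells (n = 2 each). Ctso was listed at exactly 0 on 2 of these arrays, the duplicate PARP-1 null and the first double-mutant array. The placental genes Ctsj and Cts8 were listed at exactly 0 on all 6 arrays.

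Of the natural inhibitors, 17 of 23 listed genes were measured and 1 passed in each genotype, Csta2, which encodes a stefin that blocks papain-type cathepsins. That was 5.88% of the list each time. Of named genes 2.35% passed in Wrn mutant cells, 7.19% in PARP-1 null cells and 18.5% in double-mutant cells. Csta2 was -1.01 and -1.11 in Wrn mutant cells, -1.84 and -1.50 in PARP-1 null cells, and -2.42 and -2.27 in double-mutant cells, so that all 6 arrays were below wild type. It fell in every genotype, with means of -1.06 (adjusted p = 0.0333), -1.67 (adjusted p = 0.0107) and -2.34 (adjusted p = 0.0104) in that order (limma). Stefin genes are close copies of one another, and the spot may read more than 1 of them. Cst3, the cystatin that fibroblasts secrete, and Cstb, the main stefin inside cells, were 0.42 ± 0.53 and 0.41 ± 0.17 in PARP-1 null cells (n = 2 each; adjusted p = 0.358 and 0.495, limma).

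Serine proteases of leukocyte granules, the group that cathepsin C activates, were at hand for 20 of 20 listed genes. In PARP-1 null cells 2 fell, Mcpt8 at -1.67 ± 0.55 (n = 2; adjusted p = 0.0440) and Gzmm at -1.61 ± 0.15 (n = 2; adjusted p = 0.0253), and 18 did not pass (limma), so that 10% of the list passed against 7.19% of named genes. The same 2 fell in Wrn mutant cells, where Ctsc was above wild type, at -2.82 ± 0.28 and -1.99 ± 0.38 (n = 2; adjusted p = 0.0247 and 0.0229), together with Gzmd and Gzme, which made 4 of 20 against 2.35% of named genes. In double-mutant cells 4 fell, Gzmm and Mcpt9 the furthest at -1.55 and -1.53, and 1, Gzmc, rose (1.20, adjusted p = 0.0343 in limma), 25% of the list against 18.5% of named genes. The list median was -0.85 in Wrn mutant cells, -0.34 in PARP-1 null cells and -0.28 in double-mutant cells. Whether these spots were above background is not known from the ratios.

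The wider lysosome list held 62 genes for membrane proteins, hydrolases, the proton pump, sorting receptors and their regulators, of which 55 were measured. In PARP-1 null cells 1 rose and 1 fell: Gnptg, a subunit of the enzyme that makes the mannose 6-phosphate tag, at 1.92 ± 0.12 (n = 2; adjusted p = 0.0245), and Galc, the galactosylceramidase gene, at -1.91 ± 0.12 (n = 2; adjusted p = 0.0220, limma). These were 3.64% of the list, against 7.19% of named genes. In double-mutant cells 5 rose and 12 fell, 30.9% of the list against 18.5% of all named genes. Gnptg rose, at 1.96 ± 0.028 (n = 2), and Galc fell again, at -1.71 ± 0.29 (n = 2). Aga, the aspartylglucosaminidase gene, was at -2.09 ± 0.94 and Atp6v1a, a proton pump subunit gene, at -2.09 ± 0.72 (n = 2 each), both among those that fell. Leaving out either double-mutant array left 0 of the 55, leaving out either array of the PARP-1 null left 1, and leaving out either Wrn mutant array left 5. The calls over all named genes dropped with the same arrays, from 3052 to 32 and 185, to 909 and to 1308. In Wrn mutant cells Sort1, the sortilin gene, rose, at 1.05 ± 0.17 (n = 2; adjusted p = 0.0163), and 54 did not pass (limma). Sort1 was thus 1.82% of the list, against 2.35% of named genes. The list median was 0.047 in Wrn mutant cells, 0.0013 in PARP-1 null cells and -0.37 in double-mutant cells.

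Markers of other cells were looked at array by array. Of 20 leukocyte and macrophage markers 18 were measured, and their median log2 ratio was 1.30 on the first and 0.21 on the duplicate Wrn mutant array, -0.41 and -0.31 in PARP-1 null cells, and -0.060 and -0.29 in double-mutant cells. On the first Wrn mutant array all 18 were above 0, the array on which Ctss was 1.45. Ctsc differed little between the Wrn mutant arrays (0.98 and 1.08). In double-mutant cells Ctss was higher on the duplicate array (-0.62 and -0.24), where the marker median was lower. For 8 of the 18, among them Ptprc, the pan-leukocyte CD45 gene, and Cd48, the 4 arrays without PARP-1 were all below both Wrn mutant arrays, as they were for 8.57% of named genes. Cd48 was 1.67 and 0.70 in Wrn mutant cells, -1.48 and -1.25 in PARP-1 null cells, and -1.14 and -1.09 in double-mutant cells. In the tested comparisons with wild type only Itgax, an integrin gene of dendritic cells, passed, higher in Wrn mutant cells (1.63 ± 0.49, n = 2; adjusted p = 0.0483) and in double-mutant cells (2.95 ± 0.011, n = 2; adjusted p = 0.0109; limma), which is against the direction of Ctsc in the latter. Itgax was 5.56% of the list in either genotype, against 2.35% and 18.5% of named genes. In PARP-1 null cells 0 of the 18 passed, against 7.19% of named genes. Between cells without PARP-1 and the Wrn mutant, 17 of the 18 had a difference below 0, and Itgax, at 0.13, was the 1 above. The median of these differences was -0.95. Of all 16504 named genes 7087 were below 0 there, with a median of 0.016. In that comparison 0 of the 18 passed, and 5 (27.8%) had an unadjusted p under 0.05, all lower, against 13.3% of named genes (limma). The part of these markers in the cathepsin ratios was not tested.

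Acp5, the tartrate-resistant phosphatase gene that marks osteoclasts together with Ctsk, was below wild type on all 6 arrays, from -2.34 to -1.49, and fell in every genotype (adjusted p from 0.0109 to 0.0184, limma). Acp5 was 14.3% of the list, against 2.35%, 7.19% and 18.5% of named genes in Wrn mutant, PARP-1 null and double-mutant cells. The other 6 osteoclast markers did not pass, and Calcr and Dcstamp were exactly 0 on 5 arrays each. The part of osteoclast-like cells in the Ctsk values was not tested. Fibroblast markers had medians between 0.060 and 0.94 by array. Of these 14 genes Vim, the vimentin gene, rose in PARP-1 null cells, at 2.05 ± 0.36 (n = 2, adjusted p = 0.0408, limma). Vim, S100a4 and Prrx1 rose in double-mutant cells (limma). These calls were 7.14% and 21.4% of the list, against 7.19% and 18.5% of named genes.

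**Figure D4:**
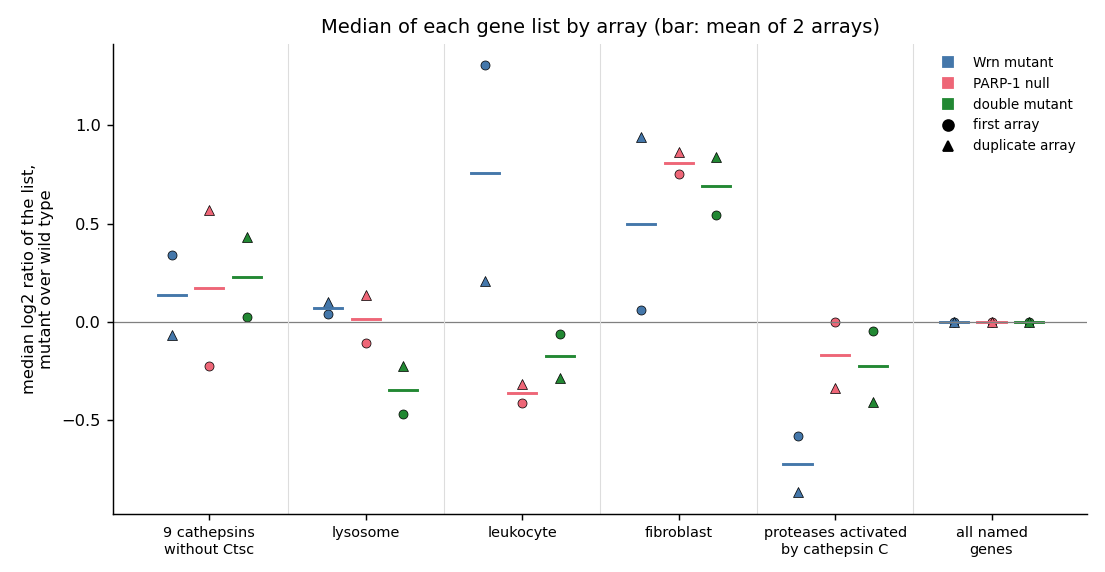
Median log2 ratio of each gene list on the 6 arrays, mutant over wild type; circles are first arrays, triangles duplicates, and bars the mean of the 2 medians. The leukocyte list stands at 1.30 on the first Wrn mutant array and between -0.41 and 0.21 on the other 5.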

How the data were processed

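The authors deposited 1 log ratio per spot and array, taken here as log10 because sizes stop at exactly 2.0 on the arrays; their base, direction, background correction and centring are not stated by the labels or headers. Between 16.9% and 23.7% of the values of an array were exactly 0, no member among them. Values were multiplied by 3.32 to give log2. Without intensities the distance from background is unknown, and precision is set by the 2 arrays a genotype.

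The platform annotation gave 1 symbol to 18218 of 22393 spots, several to 16 and none to 4159, and spots of a gene were averaged, which gave 20679 features. Features were fitted with limma 3.58.1 in R 4.3.3 (lmFit, eBayes; 6 arrays, 1 coefficient per genotype, 3 residual and 0.66 prior degrees of freedom), with Benjamini-Hochberg adjustment over all features and a threshold of 0.05; the script was tested on simulated data. Tests used 5 comparisons. Alternatives were scale normalization, exact zeros as missing, array number as a block, the compared genotypes alone, robust eBayes, the lowest-ID spot and leaving out each array. All 10 members were named; from each other list, up to 4 genes with the largest mean among those that passed in a comparison (2 where none passed), any inhibitor or other cathepsin, the 5 genes nearest to Ctsc, its 5 measured neighbours a side, Parp1 and Wrn. Members and lists were chosen with earlier results of these data known. The osteoclast list, Ptprc, Cd48, Arnt, Hormad1, Setdb1 and the likeness to Ctsk stand outside that rule and were named after their values were seen. RefSeq (GRCm38.p6) gave gene order and promoters. Plots used matplotlib 3.10.9.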

Additional observations from a re-analysis of the deposited data

Results flagged for a closer look

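Ctsc, whose values prompted the choice, and Ctss were each above 0 on both Wrn mutant arrays and below 0 on all 4 arrays without PARP-1. The share of named genes with this change of sign was not counted. All 4 arrays without PARP-1 lay below both Wrn mutant arrays for 8.57% of named genes. For Ctsc the PARP-1 null mean lay at -5.40 and the double-mutant mean at -4.87 relative to the Wrn mutant. For Ctss these differences were -1.92 and -1.18, and the Wrn mutant arrays of 1.45 and 0.046 differed from each other by more than the second of them. The differences of these single pairs of genotypes were not tested. No group had enough arrays to look for an array standing apart.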

How the results depend on the processing

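No more than 2 arrays a genotype, unknown signal over background and the unstated direction and log base limit every value here. Counts of calls rest on the shared estimate of spread. With exact zeros missing, named genes called were 883 in Wrn mutant cells, 2231 in PARP-1 null cells and 38 between cells without PARP-1 and the Wrn mutant, and 3 cathepsins other than Ctsc passed in PARP-1 null cells. Under scale normalization they were 940 in Wrn mutant cells (388 as reported), 1013 in double-mutant cells (3052 as reported) and 7 between cells without PARP-1 and the Wrn mutant (2 as reported), with 1 cathepsin in double-mutant cells. Robust eBayes gave 770 in PARP-1 null cells (1187 as reported). With the replicate block of array numbers, 0 named genes passed in Wrn mutant cells, 0 in PARP-1 null cells, 0 between cells without PARP-1 and the Wrn mutant, and 1215 in double-mutant cells, and cathepsins called were 0 in PARP-1 null cells and 1, Ctsk, in double-mutant cells. Whether same-numbered arrays shared more than a number is not known here. Their deviations correlated at -0.114, -0.168 and 0.171 over named genes. In PARP-1 null cells every member but Ctsc and Ctse was higher on the duplicate array, and in double-mutant cells every member was higher there. In Wrn mutant cells only Ctsa, Ctsc and Ctsk were. The median rise of the lysosome list was 0.24 in PARP-1 null and 0.33 in double-mutant cells, against 0.034 and 0 over all named genes. Fitted on the compared genotypes alone, 0 named genes and 0 cathepsins passed in each comparison with wild type.

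Leaving out 1 array, named genes called ran from 0 to 768 in Wrn mutant cells, 56 to 597 in PARP-1 null cells, 32 to 1308 in double-mutant cells, 0 to 416 between cells without PARP-1 and the Wrn mutant, and 0 to 286 between double-mutant cells and the PARP-1 null. Cathepsins called ran from 0 to 1 in PARP-1 null cells and 0 to 1 in double-mutant cells, and lysosome genes called in double-mutant cells from 0 to 5. Of the 9 cathepsins other than Ctsc, 3 had all arrays without PARP-1 below the Wrn mutant arrays whichever array was left out. Named genes in that order made up 9.88% to 18.6%. Leaving out an array can only keep or raise such a count, so that it did not fall was fixed in advance. The count of 3 and the lysosome count were added after seeing the data.

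Ctsc kept its sign in every comparison under scale normalization and with 1 array left out. Scale normalization moved it to -3.21 in double-mutant cells and to 1.31 above the PARP-1 null there. Values near 0 turned sign: under scale normalization Ctse was -0.04 in double-mutant cells relative to the PARP-1 null. With 1 array left out, in Wrn mutant cells Ctsd ran from -0.24 to 0.35 and Ctse from -0.07 to 0.87; in PARP-1 null cells Ctsd from -0.27 to 0.61 and Ctsz from -0.22 to 0.47; in double-mutant cells Ctsz from -0.51 to 0.43; between cells without PARP-1 and the Wrn mutant Ctsb from -0.05 to 0.48, Ctsd from -0.12 to 0.47 and Ctsz from -0.02 to 0.45; between double-mutant cells and the PARP-1 null Ctsb from -0.26 to 0.72, Ctsd from -0.33 to 0.55, Ctse from -0.12 to 0.73, Ctsl from -0.41 to 0.87 and Ctsz from -0.64 to 0.31. No sign of Ctsa, Ctsh, Ctsk or Ctss turned under scale normalization or with 1 array left out. The other alternatives left the log2 ratios of the members unchanged by design, so they could not turn a sign.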
